A study of Mus musculus with 2 samples.

Results

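Dual-specificity phosphatases and Spred proteins, which restrain MAP kinase signalling, were examined in splenic B cells. Of 9 genes chosen by symbol, 6 were measured by 10 probe sets that name that gene alone, out of 20380 such probe sets for 12393 genes. The measured genes were Dusp1, Dusp2, Dusp6, Dusp10, Spred1 and Spred2. Dusp4, Dusp5 and Mapk3, which encodes the kinase ERK1, had no such probe set in the tables used and are not analysed here. Spleen cells of mice carrying both IgM and IgD had been isolated by flow cytometry, and their RNA was hybridised to 1 array per sample. The series was designed to compare wild-type cells with cells in which the gene for serum response factor (SRF), which controls immediate early and cytoskeletal genes, was deleted. Both arrays used here are of the wild-type group, labelled as carrying no genetic modification, and no treatment is named for them. The labels give no age or strain, nor the number of mice behind each sample. Their differences are therefore the spread between 2 samples of 1 group, named replicate 1 and replicate 2 in accession order, and no test was possible.

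Signals through the B cell receptor activate Ras, which switches on the kinases Raf, MEK and ERK in turn. ERK in the nucleus phosphorylates factors that induce immediate early genes. Several of the induced genes encode dual-specificity phosphatases, which remove phosphate from both the threonine and the tyrosine of the activation loop of MAP kinases and so close a negative feedback loop. Dusp1, Dusp2, Dusp4 and Dusp5 encode inducible nuclear enzymes, Dusp6 a cytoplasmic enzyme selective for ERK, and Dusp10 an enzyme that acts on p38 and JNK. Spred1 and Spred2 encode membrane-associated inhibitors of the step from Ras to Raf.

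The promoters of Dusp1, Dusp2 and Dusp6 are shown because these were the members detected on both arrays, and a stretch of the Dusp5 promoter because the CArG box, the motif bound by SRF, was found in no other member window. The sequences come from RefSeq on GRCm38.p6, read along the gene, and each ends at or before the last base upstream of the annotated start. Capitals in Dusp1 mark TGACGTCA, the cAMP response element, and its part TGACG. Capitals in Dusp2 mark the GC box GGGCGG on either strand, capitals in Dusp5 mark 2 adjoining CArG boxes, and Dusp6 has none because no searched motif matched.
Dusp1 (chr17:26508473-26508722, minus strand): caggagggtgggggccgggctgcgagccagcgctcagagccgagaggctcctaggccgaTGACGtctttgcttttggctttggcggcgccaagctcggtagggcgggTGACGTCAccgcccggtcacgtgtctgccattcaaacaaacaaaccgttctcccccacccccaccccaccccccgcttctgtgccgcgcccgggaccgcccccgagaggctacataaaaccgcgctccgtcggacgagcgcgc
Dusp2 (chr2:127335909-127336158, plus strand): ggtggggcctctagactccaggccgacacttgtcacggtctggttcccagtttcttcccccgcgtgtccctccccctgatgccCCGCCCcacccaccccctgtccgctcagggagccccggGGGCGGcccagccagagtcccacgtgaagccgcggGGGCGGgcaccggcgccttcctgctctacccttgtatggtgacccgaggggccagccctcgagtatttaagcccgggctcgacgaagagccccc
Dusp6 (chr10:99262981-99263230, plus strand): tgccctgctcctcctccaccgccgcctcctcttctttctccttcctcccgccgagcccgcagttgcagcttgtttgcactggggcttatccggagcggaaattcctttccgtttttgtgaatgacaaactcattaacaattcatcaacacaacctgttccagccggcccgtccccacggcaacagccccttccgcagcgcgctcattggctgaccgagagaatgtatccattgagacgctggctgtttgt
Dusp5 (chr19:53529045-53529094, plus strand): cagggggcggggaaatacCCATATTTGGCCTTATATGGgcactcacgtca

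Of the 9 members, 7 had a promoter window in the RefSeq table, running from 250 bases before to 50 bases after the start. All motifs were searched on both strands. The full element TGACGTCA lay in the Dusp1 window alone, from base -143 to base -136 counted from the start, and in 1.79% of 32851 windows of the same length. Its part TGACG, which the full element contains in both orientations, occurred in the windows of Dusp1, Dusp2, Dusp5 and Spred2 and in 20.8% of all windows. The CArG box lay in the Dusp5 window alone, at bases -82 to -73 and -72 to -63, and in 1.63% of all windows. The GC box GGGCGG was found in 6 of the 7 windows, all but that of Dusp6, and in 35.7% of all windows. The GC content of the member windows ran from 57.0% for Spred2 to 72.3% for Spred1, against a median of 52.7% over all windows. The ETS core CCGGAA, in 14.9% of all windows, and TATAAA, in 13.6%, were in 0 of the 7. A match is a description of the letters, and binding was not measured in these data.

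**Figure D1:**
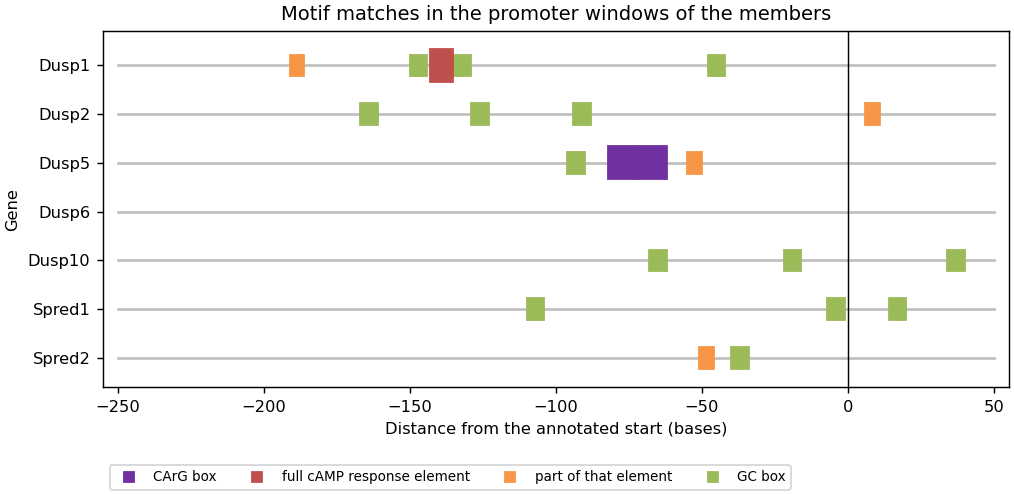
Motif matches in the RefSeq promoter windows of 7 members, drawn by distance in bases from the annotated start (vertical line), with taller boxes for the CArG box and the full cAMP response element. The full cAMP response element appears for Dusp1, both CArG boxes for Dusp5, and no match for Dusp6.

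The arrays differed in ways that touch every value below. Genes restricted to other organs (56 genes, 90 probe sets) gave a floor for each array, at percentile 90 of their signals, and it was 153 on replicate 1 and 96.7 on replicate 2. The median signal was 103 and 66.6, although both columns had been scaled to nearly the same trimmed mean. The control transcripts added before hybridisation gave higher signals on replicate 1 for 9 of 9 probe sets, by 4.0-fold to 13.2-fold. The ratio of 3′ to 5′ signal, which grows when RNA or its copies are shortened, was 3.57 on replicate 1 and 8.15 on replicate 2 for Actb. For Gapdh it was 1.31 and at least 8.53, the 5′ signal on replicate 2 being below the floor and set to it. For 18S ribosomal RNA it was lower on replicate 2, at 1.18 and 0.191. Xist, transcribed from the inactive X chromosome, gave 1025 on replicate 1 and 5.70 on replicate 2 by the probe set 1436936_s_at, and the Y-linked Eif2s3y gave 3.40 and 249. By Xist and Eif2s3y replicate 1 read as female and replicate 2 as male. The Y-linked Kdm5d passed the floor of replicate 2 alone, with 88.4 and 176 by 1424903_at. Its other probe sets and those of the Y-linked Uty were below both floors. A difference of sex therefore cannot be told apart from any other difference between the samples. The B cell label was borne out by 10 of 11 measured B cell markers above the floor on both arrays. The exception was Pax5, a factor of B cell commitment, with 21.5 and 15.6. Cd79a, the gene of the receptor's Ig-alpha chain, gave 2931 and 192, while Cd79b, the partner chain, gave 2657 and 3129, and Cd22, Ms4a1 and Ighm were also higher on replicate 2. Markers of 8 other cell types were above the floor on both arrays for 6 of 60 measured genes, or 10%, against 31.7% of all genes. They were unevenly spread, with 3 of 8 neutrophil, 2 of 12 monocyte and macrophage and 1 of 5 platelet markers. The remaining lists had 0.

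The inducible nuclear phosphatases gave the brightest probe sets among the members. Dusp2, first described as an activation-induced phosphatase of lymphocytes, read 2283 and 1067 on replicates 1 and 2 (mean signal 1675 ± 860, SD, n = 2). Both values were far above the floors, by 14.9 and 11.0 times, and the probe set stood at percentile 98.9 and 96.2 of all gene probe sets on the respective arrays. Dusp1, an immediate early gene whose product dephosphorylates p38, JNK and ERK, read 1002 and 118 (mean signal 560 ± 625, SD, n = 2). It was 6.54 times the floor on replicate 1 but 1.22 times on replicate 2, so that its detection there rested on a small margin. Its percentile among gene probe sets was 97.6 on replicate 1 and 66.5 on replicate 2. Percentiles describe the brightness of a probe set within an array, not an amount of RNA, because probes differ in affinity.

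Dusp6, the cytoplasmic ERK phosphatase, was the third member above the floor on both arrays. It read 229 and 100 (mean signal 164 ± 90.9, SD, n = 2). These are 1.49 and 1.03 times the floor, and the replicate 2 value was the nearest to a floor of any member above it. Dusp6 was thus detected close to background on both arrays, and replicate 1 was the higher of the pair. With the floor raised to the 95th percentile, which was 242 on replicate 1 and 122 on replicate 2, only Dusp2 of the members stayed above it on both.

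**Figure D2:**
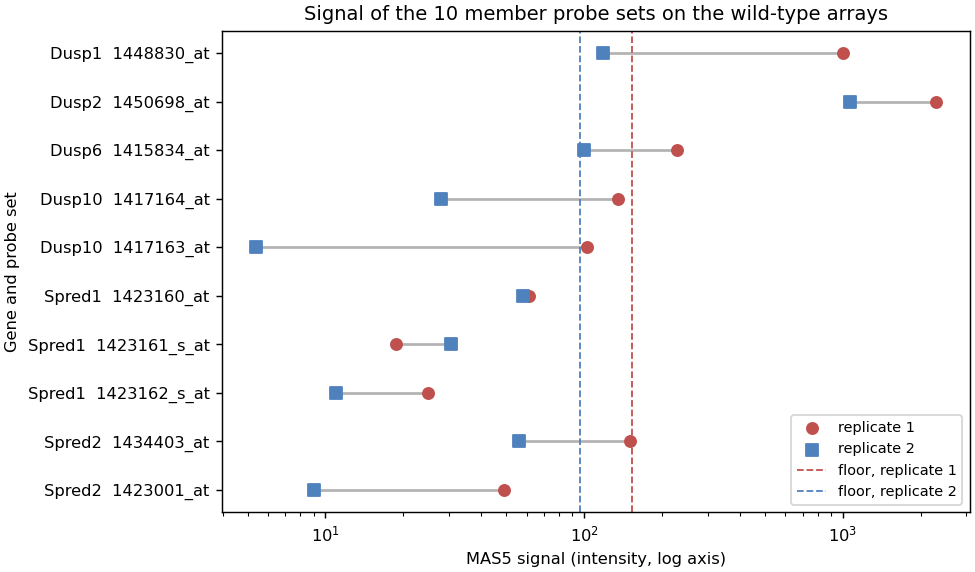
MAS5 signal (log axis) of each of the 10 member probe sets on replicate 1 (circles) and replicate 2 (squares), joined by a grey line, with the floor of each array dashed. The probe sets of Dusp1, Dusp2 and Dusp6 lie above both floors. All but 1 of the 10, a Spred1 probe set, are higher on replicate 1, although 7 of the 10 lie below both floors.

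Dusp10, the phosphatase of p38 and JNK, was below the floor on both arrays by both of its probe sets. The brighter, 1417164_at, gave 135 and 27.9 (mean signal 81.3 ± 75.5, SD, n = 2). The other, 1417163_at, gave 103 and 5.4. Replicate 1 was the higher by both, but the values under the floor carry no order of their own, and no fold is drawn from them.

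The Spred genes were likewise not detected above the floor on both arrays by any of 5 probe sets. For Spred2, the probe set 1434403_at gave 150.4 on replicate 1, which is 0.982 times the floor and the nearest member value below it, and 55.8 on replicate 2. Its second probe set gave 48.8 and 9.0. Spred1 was measured by 3 probe sets, and the brightest, 1423160_at, gave 61.3 and 57.8 (mean signal 59.6 ± 2.47, SD, n = 2). The others gave 18.7 and 30.6, and 25.0 and 11.0. All 3 were below both floors, so no direction is drawn from them. A signal below the floor cannot be told from that of genes not expected in these cells, and says nothing firm about whether Spred1 or Spred2 is transcribed.

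In all, 3 of the 10 member probe sets passed both floors, or 3 of the 6 measured genes, against 25.7% of all probe sets naming 1 gene and 31.7% of all genes. Taken array by array, the same 3 passed on replicate 1, where 35.2% of all probe sets did, and on replicate 2, where 39.5% did. The other 7 were below the floor of each array. Replicate 1 was the higher for 9 of the 10, where 58.2% of all probe sets were higher on replicate 1. Both figures include probe sets below both floors, whose values carry no order of their own. More than 2-fold apart were 8 member probe sets towards replicate 1 and 0 towards replicate 2, against 34.2% and 19.5% of all probe sets, but 5 of the 8 were below the floor on both arrays.

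The 3 detected genes each exceeded 2-fold towards replicate 1. Of all 3928 genes above both floors, 10.6% (416 genes) exceeded 2-fold in that direction and 15.0% (591 genes) towards replicate 2. Dusp1 differed by -3.08 on the log2 scale, replicate 2 minus replicate 1, an 8.48-fold difference. It was the 8th lowest of the 3928 differences. Dusp6 differed by -1.19, or 2.29-fold (percentile 6.62 of all differences), and Dusp2 by -1.10, or 2.14-fold (percentile 8.38). The median over the 3 was -1.19, beside 0.04 over all genes above the floor. The SD of log2 signal was 2.18 for Dusp1, 0.84 for Dusp6 and 0.78 for Dusp2, beside a pooled SD of 0.64 over all probe sets that passed both floors. On the scale as deposited, Dusp6 and Dusp2 therefore lay close to the usual spread between these samples, and Dusp1 well beyond it.

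The size of these differences depended on how the arrays were brought to a common scale, and their direction was kept under both rescalings run. A scale set by the added control transcripts was not run. Those transcripts were higher on replicate 1 by 4.0-fold or more, beyond the 2.29-fold of Dusp6 and 2.14-fold of Dusp2. The direction of these genes is therefore given only for the scales run. Centring each array on its median moved the median of all genes above the floor from 0.04 to 0.67, and left 84 genes beyond 2-fold towards replicate 1 and 1426 towards replicate 2, in place of 416 and 591. On that scale Dusp1 differed by -2.45, Dusp6 by -0.56 and Dusp2 by -0.46, so that only Dusp1 passed 2-fold. Centring adds 1 amount to every gene, so the distance of each member from the median of all genes is the same before and after it. Quantile normalization gave -3.23, -0.84 and -1.70 for Dusp1, Dusp6 and Dusp2, and Dusp6 no longer passed 2-fold. Each of the 3 genes was measured by 1 probe set, so no second probe set could be set beside it.

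**Figure D3:**
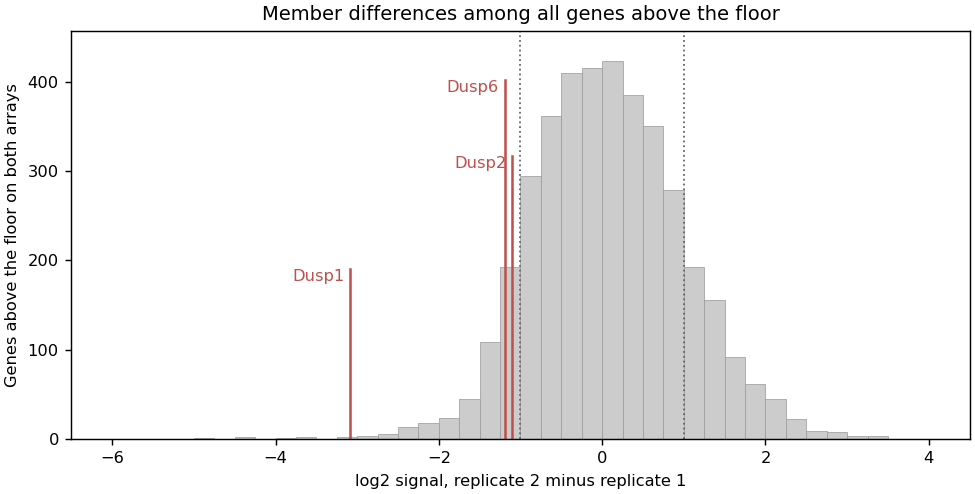
Number of genes above the floor on both arrays by their log2 difference, replicate 2 minus replicate 1, in bins of equal width, with the 3 detected members as vertical lines of arbitrary height and dotted lines at 2-fold. Dusp1 at -3.08 lies in the sparse left tail, while Dusp6 at -1.19 and Dusp2 at -1.10 lie just beyond the 2-fold line.

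The other genes nearest to Dusp1 in their difference between these 2 samples were Bzw2, Klf6, Zfp36, Ppp1r15a and Sqstm1. Zfp36, whose product speeds the decay of AU-rich mRNAs, gave 1882 on replicate 1 and 264 on replicate 2, a log2 difference of -2.83. Ppp1r15a, which encodes the stress-induced phosphatase subunit GADD34, gave 1709 and 245, a difference of -2.80. Klf6, a Krüppel-like factor gene, gave 850 and 89.9. The latter is below the floor of replicate 2, so its place among these genes is uncertain, and the gene passed by other probe sets. Bzw2 gave 974 and 127 (-2.94) and Sqstm1, an autophagy receptor gene, 740 and 114 (-2.70). The likeness rests on 2 samples, and each pair of values is given for that reason.

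The rest of the pathway did not share one direction. Over 7 lists of 113 other genes, 90 were measured and 38 passed both floors. Beyond 2-fold were 7 towards replicate 1 and 7 towards replicate 2. Of the 7 higher on replicate 1, 6 were immediate early genes, and the other was Rasgrp2, a guanine nucleotide exchange factor acting mainly on Rap1, with 442 on replicate 1 and 160 on replicate 2 (-1.47). The other 2 probe sets of Rasgrp2 also passed both floors, with differences of -0.70 and -0.90.

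Among 15 other measured dual-specificity phosphatases, 5 were above the floor on both arrays, with a median difference of -0.28. Beyond 2-fold towards replicate 1 were 0 of them. Dusp11, a phosphatase of RNA, was 2.54-fold higher on replicate 2, with 329 and 837, and its second probe set gave 380 and 573. Styx, a catalytically inactive relative that binds ERK, gave 238 ± 32.2 and Dusp19 209 ± 56.4 (SD, n = 2). The phosphatases Ppp2ca, the catalytic subunit of PP2A, and Ppm1b gave 848 ± 92.8 and 676 ± 33.8 (SD, n = 2), with differences of 0.22 and -0.10. A second probe set of Ppp2ca above both floors gave 465 and 1201, a difference of 1.37. These genes were the 2 of 7 measured other MAP kinase phosphatases above the floor.

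Of 15 other measured inhibitors of Ras and ERK signalling, 7 were above the floor, with a median of 0.97. Of the 7, 4 were higher on replicate 2 and 3 on replicate 1. The Ras GTPase-activating protein genes Rasa1 and Rasa2 were 2.11-fold and 2.15-fold higher on replicate 2, with 177 and 375, and 424 and 911. A second probe set of Rasa1 above both floors went the other way, with 184 and 142. Rasa3 gave 605 and 1209 and lay just within 2-fold. Pebp1, which encodes the Raf kinase inhibitor protein, gave 1253 and 2457 (0.97), and its second probe set 478 and 594. Higher on replicate 1, all within 2-fold, were the adaptor genes Dok3 (573 and 343), Dok1 (198 and 126) and Sh2b3 (155 and 122).

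In the cascade itself, 6 of 14 measured genes from Ras to MEK were above the floor on both arrays, with a median difference of 0.24. Map2k1, which encodes MEK1, gave 757 ± 204 and the adaptor gene Grb2 606 ± 90.3 (SD, n = 2), and a second probe set of Grb2 went the other way, with 570.3 and 371. Lamtor3, a scaffold of MEK1 and ERK1 on endosomes, was 3.8-fold higher on replicate 2, with 234 and 890. Of 7 measured ERK effectors, 6 were above the floor, and of these Mknk2, an ERK-activated kinase gene, and Elk4, an ERK-regulated partner of SRF, were 3.52-fold and 4.29-fold higher on replicate 2. The other probe sets of Elk4, below the floor of replicate 1, gave 130 and 110, and 119 and 93.8. Rps6ka3, which encodes the kinase RSK2, gave 399 ± 119 (SD, n = 2). Of 16 measured genes of the JNK and p38 cascades, 6 were above the floor, and Mapk14, which encodes p38 alpha, was 4.09-fold higher on replicate 2, with 183 and 750.1, by the 1 of its probe sets that passed both floors. Mapk9 gave 243 ± 53.7 and Map3k1 348 ± 55.7 (SD, n = 2).

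Of the listed genes that ERK signalling induces, those above both floors lay on the side of Dusp1. All 16 listed immediate early genes were measured, 6 passed both floors, and these 6 all exceeded 2-fold towards replicate 1, with a median of -3.99. Fos gave 11856 and 593, and Egr1, a direct ERK and SRF target, 2443 and 480.2. Ier2, with 1418 and 626 (-1.18), had a difference of about the size of that of Dusp6 and Dusp2. Jun, Junb and Nr4a1 differed by -4.48, -3.67 and -4.88. On replicate 2 they gave 136, 129 and 135, only 1.41, 1.34 and 1.39 times the floor, so the size of their differences is uncertain. These immediate early genes were known from earlier results on the same arrays and are not independent support. Of the rest, Fosb (411 and 42.9) and Myc (661 and 77.3) were above the floor of replicate 1 alone. Egr2 (84.9 and 136, by 1427683_at) and Phlda1 (135 and 117) were above that of replicate 2 alone. The others were below both floors, where values carry no order. Whether ERK signalling differed between the samples was not tested.

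Quantile normalization, which does not move all genes by 1 amount, was applied to the lists as well. The median stayed below 0 for the immediate early genes, at -4.15, and for the 3 detected members, at -1.70. It turned from -0.28 to 0.01 for the other dual-specificity phosphatases, from 0.06 to -0.48 for the other MAP kinase phosphatases and from 0.24 to -0.07 for the genes from Ras to MEK, so no direction is given for these 3 lists. It was 0.31 for the other inhibitors of Ras and ERK signalling, 0.29 for the ERK effectors and 0.55 for the JNK and p38 cascades, beside -0.03 for all genes above the floor. On the deposited scale and after quantile normalization, the other inhibitors, the ERK effectors and the JNK and p38 cascades each had genes on both sides of 0. After median centring, the 6 ERK effectors and the 6 JNK and p38 genes were all higher on replicate 2. The median of all genes above the floor was then 0.67. Of the other inhibitors, 2 were then higher on replicate 1 and 5 on replicate 2.

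**Figure D4:**
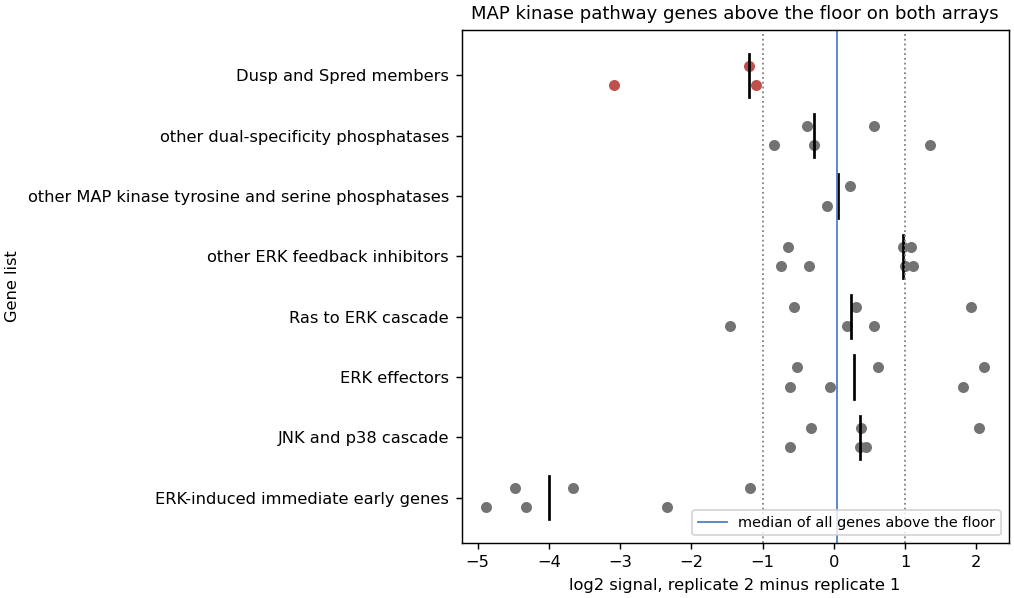
Log2 difference, replicate 2 minus replicate 1, of each gene above the floor on both arrays (points) in the members and 7 other lists, with the list median as a black bar, the median of all such genes as a blue line and 2-fold as dotted lines. The 3 members and the 6 immediate early genes lie left of -1, while the other lists spread to both sides of 0.

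The summed signal of the 60 marker genes of other cell types was 5994 on replicate 1 and 3557 on replicate 2, and it was higher on replicate 1 for each of the 8 cell types. Of these genes 54 were below the floor and 0 were listed at 0, and the floor, too, was higher on replicate 1, so the sums hold mostly background. Those above the floor on both arrays were Csf1r, Lyz2, Ngp and Itga2b, higher on replicate 1, and S100a8 and S100a9, which gave 164 and 450, and 205 and 230. Cd3e, a defining T cell gene, gave 31.1 and 16.1. The summed signal of the B cell markers was 28263 and 38493, higher on replicate 2. The part of other cells, of RNA quality, of sex and of the control signals in the differences of Dusp1, Dusp2 and Dusp6 was not tested. In bulk RNA, fewer cells expressing a gene and less of its RNA per cell cannot be told apart.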

How the data were processed

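The authors deposited 1 linear signal intensity per probe set and array. The submitters' processing notes name MAS5 without version or settings. Their mean after trimming 2% at each end was 150.0 and 150.1, so each array had been scaled by 1 factor, which multiplies background too. Array signals have no read depth, and having only 2 arrays limits the precision.

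Of 22690 probe sets, 64 controls were left out. By the supplied platform annotation 20380 probe sets named 1 gene, 691 named several, and 1555 are unnamed here. The symbols of all 10 member probe sets were the same when looked up by Entrez identifier in RefSeq. A gene passed the floor if any of its probe sets did on both arrays. The brightest of all its probe sets by mean log2 signal stood for it, whether or not that probe set itself passed. Differences were computed in Python 3.11.15 with numpy 2.4.6 and pandas 2.3.3 on log2 signals without further normalization. The counting was tested on simulated data with far less noise than these arrays and with changes well beyond 2-fold. That checked the code, and says nothing on the precision of the counts here. The 2 samples form 1 group, so no p-value was computed. Named pathway genes were the 3 brightest of each list that passed the floor, and those over 2-fold apart. A few further values were added after they were seen. Members and lists were chosen with earlier results of these data known. The alternatives were other floors, quantile normalization, median centring, log2(signal + 32), other probe set rules and each replicate left out.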

Additional observations from a re-analysis of the deposited data

How the results depend on the processing

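The floor and the scaling moved the counts, and the remaining alternatives kept them within 1.5 times. With the floor at the 95th percentile, 1 member probe set and 1 member gene, Dusp2, were above it on both arrays, and 1 member gene was over 2-fold higher on replicate 1. With no floor, 5 of the 6 measured genes were over 2-fold higher on replicate 1, Spred1 being the exception, but 2 of the 5, Dusp10 and Spred2, were below the floor on both arrays. Median centring left 1, Dusp1. Leaving out replicate 1 or replicate 2 gave 3 member probe sets and 3 member genes above the floor of the other array. With log2(signal + 32) Dusp6 differed by -0.98 and no longer passed 2-fold. The count of members over 2-fold higher on replicate 2 was 0 under each alternative run. Quantile normalization and median centring, the only 2 alternatives that rescaled the arrays, kept the sign of Dusp1, Dusp2 and Dusp6. Scaling by the added control transcripts was not run. The probe set rules could not bear on them, since each has 1 probe set. Signals near the floor limit Dusp1 on replicate 2 and Dusp6 on both arrays. No paired analysis was possible because there is 1 group.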

Other observations

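The Sprouty genes, relatives of the Spred genes that also restrain ERK signalling, were not above the floor on both arrays. They are named here after their values were seen. Spry1 gave 302 on replicate 1, above its floor, and 8.80 on replicate 2. Both Spry2 probe sets were below the floor, with 67.3 and 18.9, and 27.0 and 7.60. The Spry4 probe sets, also below it, gave 14.5 and 68.0, and 81.3 and 9.30.

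Probe sets of 1 gene did not always share a direction. Of 9 other pathway genes with more than 1 probe set above both floors, 4 had such probe sets of opposed direction, or 44.4%, against 51.6% of 947 such genes in all. They were Grb2, Map2k3, Ppm1b and Rasa1. Values below a floor carry no order, and are given here as values. Dusp3, a small phosphatase active on ERK and JNK, gave 207 and 14.8 by 1425608_at and 144 and 242 by 1434472_at. Dusp7, the close relative of Dusp6, gave 162 and 12.2 by 1452097_a_at and 51.4 and 178 by 1427416_x_at. Dusp1, Dusp2 and Dusp6 had 1 probe set each, so this comparison does not exist for them.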
